A study of Mus musculus with 8 samples.

Results

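Extracellular matrix is the protein scaffold around cells, and in the liver most of it is made by hepatic stellate cells, portal fibroblasts and the sinusoidal endothelium. The module described here is a list of 38 genes, chosen by name, of the 47719 listed in the expression table of the study. It holds 5 chains of fibrillar collagens, 4 chains of collagens VI and XIV, 8 basement membrane genes, 7 genes of matrix glycoproteins, proteoglycans and elastic fibre, 6 genes of matrix remodelling, 4 cytoskeletal genes of contractile and mesenchymal cells, and 4 genes of stellate cell identity and signalling. Resting stellate cells store vitamin A and carry Reln, Lrat and Pdgfrb. When activated after injury they take on contractile proteins such as alpha smooth muscle actin (Acta2) and lay down collagen I and III, under the influence of the cytokine TGF-beta 1. Basement membranes are thin sheets of collagen IV, laminin, nidogen and perlecan that underlie vessels and ducts, and the space of Disse beside the hepatocytes holds the same components loosely.

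RNA of liver tissue from wild-type C57BL/6 mice was sequenced in 8 libraries: 4 taken 2 days after extended hepatectomy, in which surgeons cut away most liver lobes, 2 taken 14 days after it, and 2 from normal mice aged 10 weeks, called control. The study tested encapsulated human hepatocyte organoids as a treatment for liver failure, and its design text names the treatments EMC, given to treated control mice, and eLO at day 2, and eLO alone at day 14. No label places a day 2 library in a treatment, so the treatments were not compared. Surgery, treatment and time cannot be told apart in the comparisons with control, nor can time and treatment between day 14 and day 2. Sham-operated mice are not among the groups, the age of the operated mice is not given, and the title of day 2 replicate 1 reads d1 although its label says day 2. That of day 2 replicate 3 includes TVR, an abbreviation left unexplained there. The labels do not say that each library came from its own mouse, so p-values measure the spread between libraries.

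Values are FPKM, a fragment count scaled by transcript length and library depth, which allow levels to be compared between genes. Absolute depth was unknown, and the steps between the lowest values gave no clear relative depth, since the commonest ratio to control replicate 1 held 3.79% to 17.8% of the values compared. The control libraries correlated at r = 0.988 over genes, which are not independent replicates, and the day 14 libraries at r = 0.963. The day 2 libraries stood apart from each other, in that replicates 1 and 2 had r = 0.959 and replicates 3 and 4 had r = 0.968, whereas replicates 2 and 3 had r = 0.889. The defining hepatocyte gene Alb was at 14930 to 39857 FPKM in every library.

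In control liver the module was led by Fn1, fibronectin, at 251 ± 10.2 FPKM (SD, n = 2), and Col18a1, collagen XVIII, at 217 ± 2.46 FPKM, both of which hepatocytes are known to make. Dcn, Bgn, Sparc, Mmp14 and Reln followed at means of 46.5 to 10.7 FPKM. Collagen I, the main collagen of scar, was low, with Col1a1 at 1.26 ± 0.307 FPKM and Col1a2 at 2.20 ± 0.235 FPKM. Of the 38 members 36 averaged at least 1 FPKM at day 2, 26 at day 14 and 30 in control. No member was at 0 in any library. The summed FPKM of the members was 841 to 964 in the day 2 libraries, 316 and 420.5 in the day 14 libraries, and 663 and 677.5 in the controls.

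A gene was tested if it reached 1 FPKM in at least 2 libraries, which 12340 genes and 36 members did. Fbln5 and Lox did not. Col5a1, Col5a2, Col6a2, Timp1, Mmp2 and Acta2 reached the filter through their day 2 values alone, so a member of this kind was bound to look higher at day 2. Changes are differences in log2(FPKM + 1) with standard errors, which understate changes of low genes, and a gene is called where limma's Benjamini-Hochberg adjusted p over all genes tested is under 0.05. Because these are whole-tissue libraries, fewer cells of a type and less RNA per cell cannot be told apart.

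**Figure D1:**
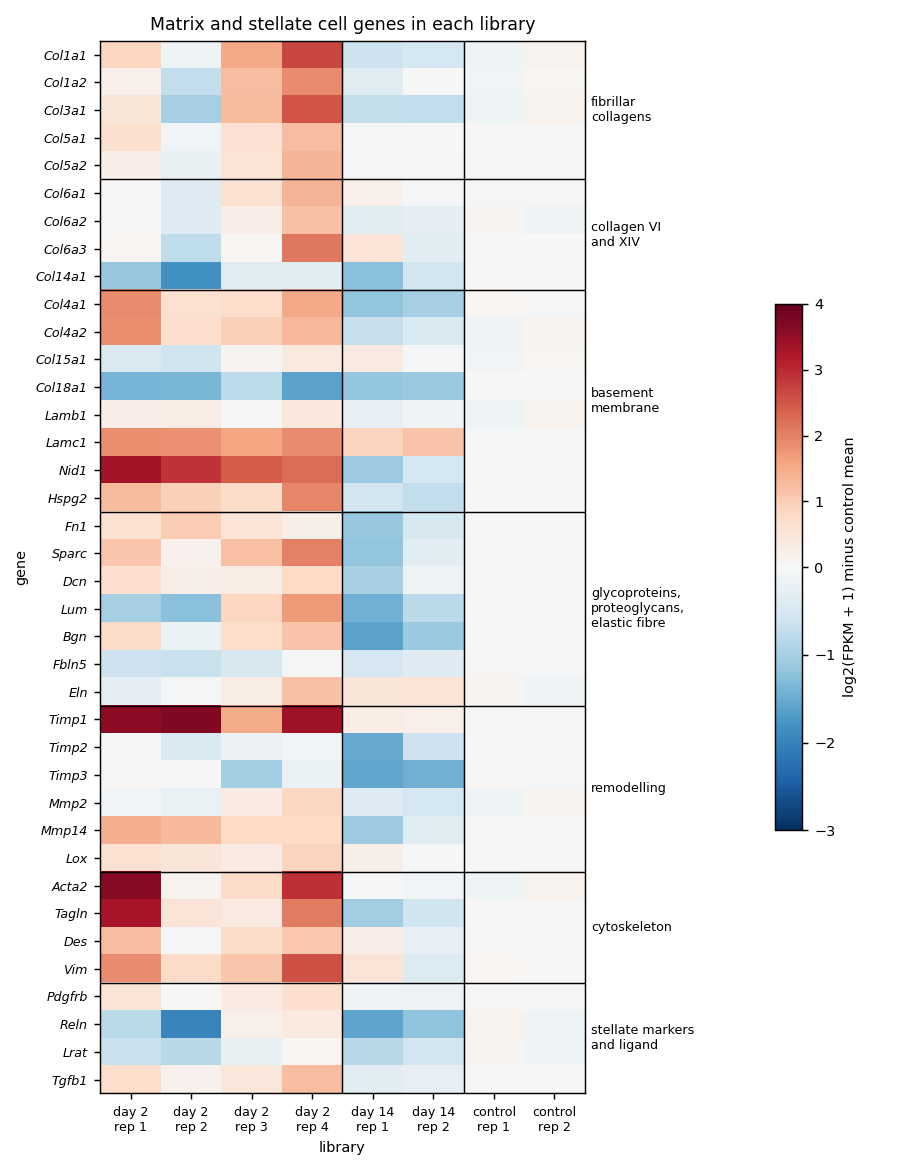
Level of each of the 38 members (rows, by role) in each library (columns, day 2, day 14 and control), as log2(FPKM + 1) minus the mean of the controls, red above and blue below control. Day 2 replicate 4 was the highest day 2 library for 26 members and replicate 2 the lowest for 26, while the day 14 libraries lay below both controls for 27 and 29 members. Both day 14 libraries were below both controls in 63.9% of the members tested and in 35.7% of all genes tested.

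Day 2 was compared with control to describe the liver remnant early after surgery. Some genes of the basement membrane and of matrix remodelling were higher at day 2. Nid1, Lamc1, Hspg2, Col4a2, Timp1 and Mmp14 rose, and Col18a1 fell. The share called higher was 6 of 36 members tested, 16.7%, against 9.72% of all genes tested, and the share called lower was 1 of 36, 2.78%, against 11.5% of all genes. Of the 6 called higher, Timp1 passed the filter through its day 2 values alone. None of the fibrillar collagens, the collagen VI chains, the glycoproteins and proteoglycans, the cytoskeletal genes or the stellate markers was called by limma. At an unadjusted p under 0.05 the count was 10 members in all, with no share of all genes counted beside it. Of these 1 was a glycoprotein gene (Sparc), 1 was cytoskeletal (Vim), and 0 came from the fibrillar, collagen VI and XIV or stellate groups. The median change of the tested members was 0.60 log2 units, and 0.59 over all 38 without the filter, beside 0.05 over all genes tested. All day 2 libraries lay above both controls in 36.1% of the members tested and in 26.1% of all genes tested. They lay below both in 5.56% of the members and 25.4% of all genes. Without day 2 replicate 4 the members' median was 0.39. All 7 calls were lost without control replicate 1 and all but Lamc1 without control replicate 2, while 13 members were called without day 2 replicate 2. Without day 2 replicate 2, 2870 of 12142 genes tested were called in all. The members gained were Col1a1, Col4a1, Sparc, Bgn, Des and Vim. Fibrillar, glycoprotein and cytoskeletal genes thus had calls without that library, and Col4a1 and Vim were also called without day 2 replicate 3. Hspg2 and Mmp14 were not called without day 2 replicate 1, Col4a2 was not without day 2 replicate 4, and neither Col4a2 nor Hspg2 was without either day 14 library, which share the estimate of spread. Among all genes 96 were called without control replicate 1 and 92 without control replicate 2, against 2620 with all libraries. The members have longer and more GC-rich transcripts than other genes, with medians of 5260 bases and 53.3% GC against 3103 bases and 49.7% over all genes tested with a known length. With the trend of each library with length and GC removed, Nid1, Lamc1, Timp1 and Col18a1 were called and the other 3 were not, with changes of 1.20 for Hspg2, 1.08 for Col4a2 and 0.89 for Mmp14 (limma adjusted p = 0.0567, 0.0713 and 0.0728).

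Nid1 encodes nidogen-1, which links the laminin and collagen IV networks of basement membranes, and lies on chromosome 13 of GRCm38 at 13437551 to 13512269. It stood at 31.8, 23.2, 16.4 and 14.2 FPKM in day 2 replicates 1 to 4, against 2.19 and 2.30 FPKM in the controls. Every day 2 library was above both controls. The change was 2.72 ± 0.33 log2 units (limma adjusted p = 0.0032), a 9.54-fold ratio of mean FPKM. Lamc1, the gamma 1 chain shared by most laminins, on chromosome 1 at 153218922 to 153332786, had 10.6, 10.4, 8.48 and 10.8 FPKM at day 2, against 2.12 and 2.26 FPKM in control. Its day 2 libraries were close together and its change was 1.79 ± 0.19 (limma adjusted p = 0.00219). Lamb1, the laminin beta 1 chain that pairs with it, was not called, at 1.22 to 1.98 FPKM at day 2 and 1.01 to 1.49 FPKM in control (change 0.25 ± 0.21, limma adjusted p = 0.419). The difference between the changes of these chains was not tested.

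Hspg2, perlecan, a large heparan sulfate proteoglycan of basement membranes on chromosome 4 at 137468769 to 137570630, had 9.43, 7.42, 6.29 and 15.8 FPKM at day 2, against 3.35 and 3.39 FPKM in control. It rose by 1.22 ± 0.32 log2 units (limma adjusted p = 0.0332), with replicate 4 the highest. The collagen IV genes Col4a1 and Col4a2 encode chains of the main network-forming trimer of basement membranes and lie head to head on chromosome 8. Col4a2 had 15.8, 6.48, 8.01 and 10.6 FPKM at day 2, against 3.33 and 4.07 FPKM in control, and rose by 1.19 ± 0.32 (limma adjusted p = 0.0346). Col4a1 had 22.6, 8.64, 9.42 and 17.1 FPKM at day 2, against 5.67 and 5.06 FPKM in control. It too was above both controls in every day 2 library, with a change of 1.18 ± 0.37 that missed the threshold (limma adjusted p = 0.0556). The annotated first exons of this gene pair share 22 bases, chr8:11312805-11312826 of GRCm38 on the plus strand, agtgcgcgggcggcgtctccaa, a stretch too short to carry much of either level.

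Col18a1, which encodes the collagen XVIII core protein and the endostatin fragment at its end, moved the other way. It stood at 82.2, 82.5, 125 and 70.4 FPKM in day 2 replicates 1 to 4, against 215 and 218 FPKM in control. All day 2 libraries were below both controls, the change was -1.29 ± 0.26 log2 units (limma adjusted p = 0.0144), and the mean at day 2 was 0.415 of that in control. Its relative Col15a1, collagen XV, had 1.56, 1.29, 2.73 and 3.52 FPKM at day 2, against 2.27 and 2.67 FPKM in control, and the groups overlapped (change -0.14 ± 0.31, limma adjusted p = 0.773). The basement membrane genes thus included 4 called higher and 1 called lower of 8. Among the 14 endothelial markers, whose cells lie on this matrix, 0 were called higher and Kdr and Fcgr2b were called lower at day 2. Their summed level was 74.1 to 132 FPKM at day 2 and 131 and 144 FPKM in control, with the defining markers Pecam1 and Cdh5 present in every library, and their part in the result was not tested. The 7 hepatocyte markers tested summed to 35937 to 63540 FPKM at day 2 and 47605 and 50318 FPKM in control. Most of the sum was Alb, at 14930 to 39857 FPKM at day 2 and 29161 and 32804 FPKM in control, and Apoa1. Apoa1 was at 9747.7 to 32751 FPKM at day 2, above its 8653.7 and 7868.5 FPKM in control, while the list's median change was -0.67 log2 units. Of these markers Cps1, of the urea cycle, was the 1 called, falling by 1.73 ± 0.53 on the log2 scale. Their part in the Col18a1 level was not tested.

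**Figure D2:**
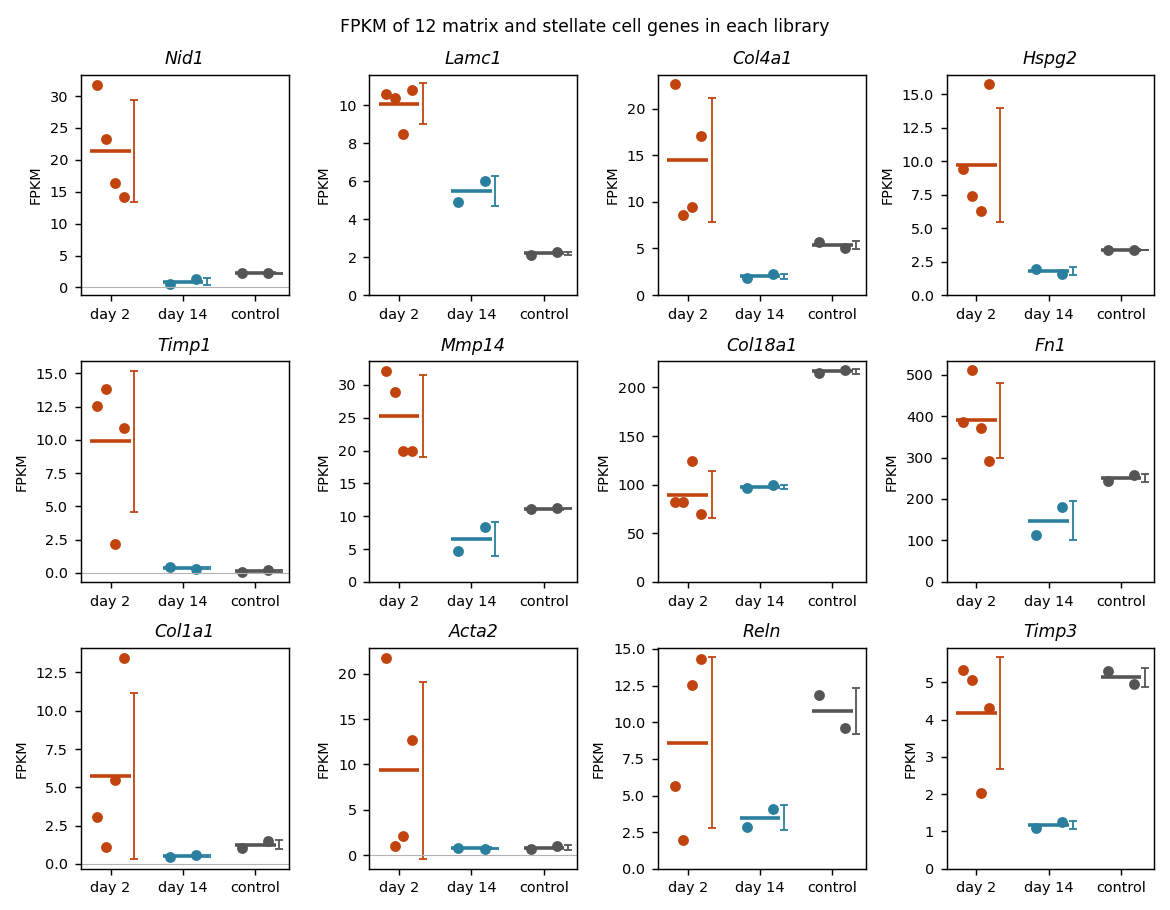
FPKM (vertical axes, linear, each with its own scale) of 12 members by group, with 1 point per library, a bar at the group mean and an error line of 1 SD to its right (n = 4 at day 2, 2 at day 14 and 2 in control). Nid1 and Lamc1 at day 2 lie above every other library, Col18a1 is lower in all operated libraries than in the controls, and Acta2 and Col1a1 spread widely among the day 2 libraries.

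The remodelling genes comprise inhibitors and proteases. Timp1, the inducible tissue inhibitor of metalloproteinases, on the X chromosome at 20870166 to 20874735, had 12.6, 13.8, 2.18 and 10.9 FPKM at day 2, against 0.0893 and 0.178 FPKM in control. It was nearly silent in the controls and lowest at day 2 in replicate 3, and it rose by 3.05 ± 0.57 log2 units (limma adjusted p = 0.0113). Timp2, which with Mmp14 brings the gelatinase precursor pro-MMP2 to the cell surface, had 2.33 to 3.56 FPKM at day 2 and 3.56 FPKM in both controls (change -0.18 ± 0.28, limma adjusted p = 0.658). Timp3, which binds to the matrix itself, had 5.33, 5.07, 2.03 and 4.30 FPKM at day 2, against 5.31 and 4.95 FPKM in control (change -0.30 ± 0.31, limma adjusted p = 0.503). Mmp14, the membrane-anchored collagenase that activates pro-MMP2, had 32.2, 28.9, 19.9 and 19.9 FPKM at day 2, against 11.1 and 11.2 FPKM in control. It lies on chromosome 14 at 54431612 to 54445364 and rose by 1.08 ± 0.29 (limma adjusted p = 0.0347). Mmp2 itself, gelatinase A, was low at 0.578, 0.471, 1.10 and 1.96 FPKM at day 2, against 0.549 and 0.820 FPKM in control (change 0.21 ± 0.31, limma adjusted p = 0.631). Lox, a collagen cross-linking oxidase, was under 1 FPKM throughout and untested, at 0.333 to 0.969 FPKM at day 2 and 0.0727 and 0.0411 FPKM in control.

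Timp1 is known as a target of inflammatory signals. Of 6 neutrophil markers 4 were tested and 3 rose at day 2, S100a8 by 3.99 ± 0.86, Retnlg by 3.76 ± 0.75 and S100a9 by 3.64 ± 0.90 log2 units (limma adjusted p = 0.017, 0.0133 and 0.0269). Their summed level was 140, 321, 87.2 and 31.8 FPKM in day 2 replicates 1 to 4 and 4.21 and 7.82 FPKM in control. Replicate 4 was the lowest of these 4 libraries in neutrophil markers and replicate 3 the lowest in Timp1, and the part of neutrophils in the Timp1 level was not tested.

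Of the members called higher at day 2, Lamc1 and Col4a2 have no upstream sequence printed here. The Col4a2 bases given above are from its first exon. The other 4 members share a call in the same direction, though their order among the day 2 libraries differed. The sequences before their start are printed because of the shared call. Each is the 250 bases upstream of the RefSeq start on GRCm38.p6, 5′ to 3′ on the gene's strand, with GC boxes (GGGCGG) and CCAAT boxes in capitals on either strand. In Mmp14 a CCAAT match overlaps a GC box.
Nid1, chr13:13437352-13437601: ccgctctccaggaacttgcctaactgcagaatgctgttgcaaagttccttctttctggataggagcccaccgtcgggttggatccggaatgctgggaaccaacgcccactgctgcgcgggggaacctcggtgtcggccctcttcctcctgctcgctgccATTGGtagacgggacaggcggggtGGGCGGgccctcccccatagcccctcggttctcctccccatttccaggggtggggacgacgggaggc
Hspg2, chr4:137468553-137468802: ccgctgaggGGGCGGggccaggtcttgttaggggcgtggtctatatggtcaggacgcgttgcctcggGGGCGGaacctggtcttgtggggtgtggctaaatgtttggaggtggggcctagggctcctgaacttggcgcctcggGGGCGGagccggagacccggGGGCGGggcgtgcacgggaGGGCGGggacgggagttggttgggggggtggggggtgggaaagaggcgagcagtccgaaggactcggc
Mmp14, chr14:54431348-54431597: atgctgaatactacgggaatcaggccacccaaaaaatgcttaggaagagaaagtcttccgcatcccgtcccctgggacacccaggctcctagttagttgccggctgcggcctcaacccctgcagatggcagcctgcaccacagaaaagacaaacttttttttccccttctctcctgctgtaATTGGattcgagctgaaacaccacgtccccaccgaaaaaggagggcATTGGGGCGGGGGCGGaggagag
Timp1, chrX:20869916-20870165: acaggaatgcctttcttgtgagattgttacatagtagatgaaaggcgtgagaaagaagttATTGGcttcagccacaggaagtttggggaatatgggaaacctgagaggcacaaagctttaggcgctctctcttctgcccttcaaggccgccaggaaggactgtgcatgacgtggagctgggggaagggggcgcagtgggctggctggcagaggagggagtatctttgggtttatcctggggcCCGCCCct

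Hspg2 held 5 GC boxes and 0 CCAAT matches, Mmp14 held 2 of each, and Nid1 and Timp1 held 1 of each. RefSeq windows were at hand for 26 of the 38 members. The GC box occurred on either strand in 18 of these and in 32.7% of all 32851 windows of that length. CCAAT occurred in 12 of 26 and in 33.8% of all windows, and TATAAA in Col3a1 and Vim and in 12.4% of all windows. The AP-1 motif TGANTCA, with N any base, was in Col6a1 and in 6.75% of all windows, and the CArG box of contractile genes was in 0 of 26 members and 1.47% of all windows. A match describes the letters of the window and shows no binding.

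Fibrillar collagens, which form the tensile fibres of scar, spread widely among the day 2 libraries and none was called. Col1a1 stood at 3.07, 1.07, 5.46 and 13.4 FPKM in day 2 replicates 1 to 4, against 1.04 and 1.47 FPKM in control. Replicate 2 lay between the controls and replicate 4 far above them, and the change of 1.24 ± 0.64 did not pass (limma adjusted p = 0.196). Without replicate 2 it was 1.69 and passed (limma adjusted p = 0.0434). Col1a2, the partner chain of collagen I, had 2.64, 0.904, 6.55 and 10.9 FPKM at day 2, against 2.04 and 2.37 FPKM in control (change 0.64 ± 0.64, limma adjusted p = 0.485). Col3a1, which forms thin fibres with collagen I, had 10.3, 2.99, 18.1 and 45.0 FPKM at day 2, against 6.26 and 7.84 FPKM in control (change 0.82 ± 0.79, limma adjusted p = 0.475). Replicate 2 was below both controls for Col1a2 and Col3a1. Col5a1 and Col5a2, chains of the collagen V that helps start fibrils, were at 0.513 to 2.74 FPKM and 0.270 to 2.80 FPKM at day 2, and at 0.578 to 0.616 FPKM and 0.431 to 0.533 FPKM in control. In all 5 genes replicate 4 was the highest day 2 library and replicate 2 the lowest. Set against the control mean, the median of the 5 genes stood at 0.49 in replicate 1, -0.22 in replicate 2, 1.24 in replicate 3 and 1.90 in replicate 4, in log2 units.

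Of 6 ratios between members, 3 took values in the 3 groups that did not overlap, among them that of the collagen I chains. Collagen I is assembled from a pair of alpha 1 chains and a single alpha 2 chain. Col1a1 was at 1.16, 1.19, 0.834 and 1.23 times the FPKM of Col1a2 in the day 2 libraries, at 0.311 and 0.253 times in the day 14 libraries, and at 0.510 and 0.622 times in the controls. The groups did not overlap, also in day 2 replicate 2, where both genes were near or under the control level. The ratios were examined after the members' values were seen and were not tested. How often the ratios of other gene pairs keep the groups apart was not counted. The ratio of Col3a1 to Col1a1 shares a gene with that of the collagen I chains. The transcripts are similar in length and GC content, at 5930 bases and 58.9% for Col1a1 and 5348 bases and 55.7% for Col1a2. Col4a1 was at 1.43, 1.33, 1.18 and 1.61 times Col4a2 in the day 2 libraries, at 0.935 and 0.911 times at day 14, and at 1.70 and 1.24 times in control, so that day 2 and control overlapped. Nid1 was at 3.00, 2.23, 1.93 and 1.31 times Lamc1 at day 2, at 0.107 and 0.210 times at day 14, and at 1.03 and 1.02 times in control, again with no overlap. Col3a1 was at 3.35, 2.79, 3.32 and 3.35 times Col1a1 at day 2, at 8.52 and 6.67 times at day 14, and at 6.02 and 5.32 times in control, the third ratio with no overlap.

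**Figure D3:**
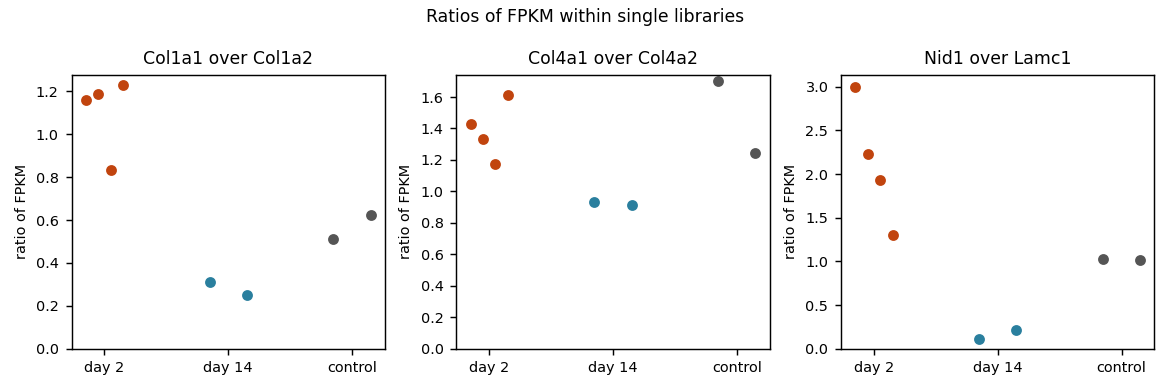
Ratio of FPKM within each library (vertical axes, linear from 0) for Col1a1 over Col1a2, Col4a1 over Col4a2 and Nid1 over Lamc1, with 1 point per library in each group. For the collagen I chains the day 2 points lie at 0.834 to 1.23, the day 14 points at 0.253 and 0.311 and the control points at 0.510 and 0.622, with no overlap.

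Collagen VI forms beaded microfibrils around cells, and collagen XIV sits on the surface of collagen I fibrils. Col6a1 was at 0.872 to 5.29 FPKM at day 2 and 1.37 to 1.50 FPKM in control, and Col6a2 at 0.607 to 3.72 FPKM and 0.962 to 1.27 FPKM. Col6a3 was at 1.19, 0.225, 1.21 and 8.07 FPKM at day 2, against 1.10 and 1.06 FPKM in control, with replicate 4 alone well above. Changes of the 3 chains were 0.26 to 0.41 log2 units and none was called. Col14a1 had 3.16, 1.60, 6.04 and 6.32 FPKM at day 2, against 8.23 and 7.97 FPKM in control, below both controls in every day 2 library (change -0.91 ± 0.43, limma adjusted p = 0.166).

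Among the non-collagenous proteins Fn1 was the most abundant, at 386, 511, 370.0 and 293 FPKM at day 2, against 244 and 258 FPKM in control. Every day 2 library lay above both controls, and the change of 0.61 ± 0.30 did not pass (limma adjusted p = 0.18). Sparc, a collagen-binding matricellular protein, had 45.7, 23.2, 49.0 and 87.2 FPKM at day 2, against 21.3 and 19.9 FPKM in control (change 1.13 ± 0.47, limma adjusted p = 0.121). The small leucine-rich proteoglycans Dcn, Bgn and Lum bind and space collagen fibrils. Dcn had 74.3, 54.6, 57.1 and 82.1 FPKM at day 2, against 46.2 and 46.7 FPKM in control. Bgn had 53.6, 27.0, 51.7 and 70.6 FPKM at day 2, against 32.5 and 29.9 FPKM in control, and Lum 1.60, 1.18, 8.48 and 15.9 FPKM, against 4.06 and 4.33 FPKM. Dcn was above control in all day 2 libraries, Bgn in all but replicate 2, and Lum in replicates 3 and 4, and the changes were 0.50 ± 0.29, 0.61 ± 0.37 and 0.08 ± 0.78 (limma adjusted p = 0.25, 0.259 and 0.952). Eln, elastin, had 0.352, 0.596, 1.05 and 2.74 FPKM at day 2, against 0.776 and 0.557 FPKM in control. Fbln5, which helps assemble elastic fibres, was untested at 0.168 to 0.771 FPKM at day 2 and 0.902 and 0.811 FPKM in control.

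Cytoskeletal genes of contractile cells were uneven among the day 2 libraries and none was called. Acta2 had 21.7, 0.995, 2.09 and 12.7 FPKM in day 2 replicates 1 to 4, against 0.660 and 1.00 FPKM in control. Replicates 1 and 4 were far above control and replicate 2 lay between the control values, and the change of 1.86 ± 0.90 did not pass (limma adjusted p = 0.168). Tagln, an actin-binding protein of smooth muscle and myofibroblasts, had 51.9, 6.71, 5.98 and 22.1 FPKM at day 2, against 4.35 and 4.51 FPKM in control (change 1.56 ± 0.75, limma adjusted p = 0.168). Its annotated exons share 1349 bases with Pcsk7 on the opposite strand, and whether counting used strand is not given, so the split of reads between them is uncertain. Pcsk7 itself was at 5.16 to 7.46 FPKM at day 2, at 11.2 and 8.39 FPKM at day 14, above all other libraries, and at 6.84 and 6.69 FPKM in control. Vim, the intermediate filament of mesenchymal cells and leukocytes, had 38.9, 17.2, 21.9 and 61.3 FPKM at day 2, against 10.3 and 9.16 FPKM in control, all day 2 libraries above control (change 1.58 ± 0.49, limma adjusted p = 0.0549). Des, the intermediate filament of muscle and of rodent stellate cells, had 4.24, 1.13, 2.70 and 3.67 FPKM at day 2, against 1.14 and 1.32 FPKM in control (change 0.74 ± 0.36, limma adjusted p = 0.174). Set against the control mean, the median of these 4 genes stood at 2.59 in replicate 1, 0.32 in replicate 2, 0.75 in replicate 3 and 2.31 in replicate 4, in log2 units. Replicate 1 led here, whereas in the fibrillar collagens replicate 3 exceeded replicate 1.

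The other contractile markers bear on the same libraries. Of 11 smooth muscle and myofibroblast markers, 7 were tested, Tpm1 rose by 1.89 ± 0.31 and Mylk fell by 1.35 ± 0.30 on the log2 scale at day 2 (limma adjusted p = 0.00719 and 0.0191). Their summed level was 300.4, 161, 184 and 306 FPKM in day 2 replicates 1 to 4 and 134 and 136 FPKM in control. The defining markers of differentiated smooth muscle were at or near 0, with Myh11 at no more than 0.560 FPKM and Cnn1 at no more than 0.116 FPKM in any library. Of the mesothelial list 0 of 7 genes passed the filter, with sums of 0.400 to 2.53 FPKM at day 2, and skeletal muscle markers summed to no more than 0.221 FPKM.

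None of the 4 genes of stellate cell identity and signalling was called at day 2. Reln, a secreted glycoprotein made in liver by stellate cells, had 5.62, 1.94, 12.6 and 14.3 FPKM at day 2, against 11.9 and 9.64 FPKM in control. Replicates 1 and 2 were below and replicates 3 and 4 above both controls (change -0.55 ± 0.61, limma adjusted p = 0.527). Lrat, the enzyme that esterifies retinol for storage, had 1.17, 0.931, 1.93 and 2.61 FPKM at day 2, against 2.72 and 2.17 FPKM in control (change -0.41 ± 0.29, limma adjusted p = 0.322). Pdgfrb, the receptor through which platelet-derived growth factor drives stellate cell division, had 2.00, 1.10, 1.65 and 2.34 FPKM at day 2, against 1.20 and 1.01 FPKM in control (change 0.38 ± 0.23, limma adjusted p = 0.269). Tgfb1, the ligand, had 6.01, 3.91, 4.91 and 9.09 FPKM at day 2, against 3.31 and 3.33 FPKM in control, higher in every day 2 library, with a change of 0.64 ± 0.29 that did not pass (limma adjusted p = 0.142). Replicate 2 was the lowest day 2 library in all 4 genes and replicate 4 the highest.

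Of 25 further stellate cell markers 21 were tested. Cygb, a globin of stellate cells, had 6.00 to 10.2 FPKM at day 2, against 1.90 and 2.67 FPKM in control, and rose by 1.32 ± 0.26 (limma adjusted p = 0.0135). Colec10, a secreted lectin, fell by 1.72 ± 0.30 on the log2 scale (limma adjusted p = 0.00915). The list's median change was -0.05 log2 units. Its defining marker Hand2 was present in every library, at 1.70 to 6.60 FPKM at day 2 and 2.05 to 2.18 FPKM in control. Portal fibroblast markers summed to 4.15 to 8.69 FPKM at day 2 and 7.09 and 5.71 FPKM in control, with Thy1 at no more than 1.29 FPKM and Gli1 at no more than 0.182 FPKM in any library.

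**Figure D4:**
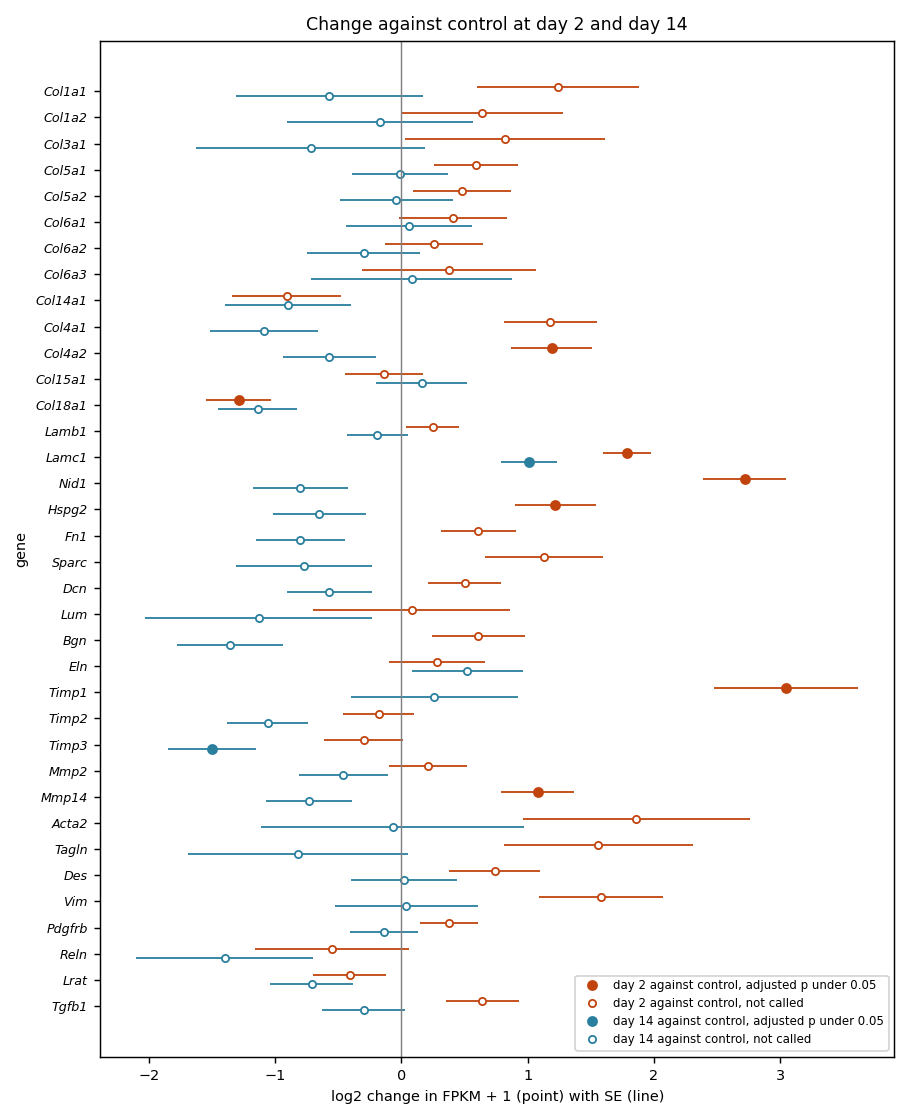
Change in log2(FPKM + 1) against control (horizontal axis, point with a line of 1 SE) of the 36 members tested, in role order, at day 2 (orange) and at day 14 (blue), with filled points for calls at an adjusted p under 0.05. Of the 36 day 2 points 29 lie right of 0, and 28 of the 36 day 14 points lie left of it.

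Day 14 was compared with control to describe the liver after regrowth, by the design text with eLO. Few members were called. Lamc1 was higher and Timp3 lower, 1 of 36 in each direction or 2.78%, against 5.21% of all genes called higher and 4.58% called lower. The changes were negative in 28 of 36 members, with a median of -0.57 log2 units for the tested members, -0.52 over all 38 without the filter and 0.00 over all genes. At an unadjusted p under 0.05 the count was 7 members. The share of all genes at that cut was not counted, so no excess of members is read from it. Both day 14 libraries lay below both controls in 23 of the 36 members tested, 63.9%, against 35.7% of all genes tested. They lay above both in 3 members, 8.33%, against 35.3% of all genes. Only 2 libraries stand in each group, and the calls depended on single libraries. Without day 2 replicate 1, day 14 replicate 1, control replicate 1 or control replicate 2 no member was called, without day 14 replicate 2 Timp2 was the 1 call, and without day 2 replicate 4 Lamc1 was. A fit of day 14 and control alone called 7 of the 36 members, Lamc1, Timp3, Col18a1, Col4a1, Bgn, Lum and Reln. That fit called 2664 of 12340 genes in all, against 1208 in the main fit, so calls grew over the whole table too. With no filter, or with the length and GC trend removed, Lamc1 was called and Timp3 was not.

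Lamc1 was at 4.92 and 6.02 FPKM in the day 14 libraries, against 2.12 and 2.26 FPKM in control, a change of 1.01 ± 0.22 (limma adjusted p = 0.034). It was the single basement membrane gene called higher than control at both times. Timp3 was at 1.09 and 1.25 FPKM at day 14, against 5.31 and 4.95 FPKM in control, and fell by 1.50 ± 0.35 log2 units (limma adjusted p = 0.0406). Timp3, on chromosome 10 at 86300372 to 86349506, lies within Syn3 and shares 1733 exon bases with it on the opposite strand. Syn3 was at 0.527 and 1.41 FPKM at day 14, against 0.174 and 0.241 FPKM in control, higher where Timp3 was lower and above Timp3 in day 14 replicate 2. How reads were split between these genes is not given, so the Timp3 level is uncertain. Col18a1 stayed low at 96.2 and 99.5 FPKM, against 215 and 218 FPKM in control, with a change of -1.14 ± 0.31 just short of the threshold (limma adjusted p = 0.0527). Timp2 was at 0.596 and 1.99 FPKM, against 3.56 FPKM in both controls (change -1.06 ± 0.32, limma adjusted p = 0.0704), and Bgn at 9.58 and 13.8 FPKM, against 32.5 and 29.9 FPKM (change -1.36 ± 0.42, limma adjusted p = 0.0763).

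The stellate genes lay below both controls at day 14, and none passed the test. Reln was at 2.88 and 4.08 FPKM, against 11.9 and 9.64 FPKM in control (change -1.40 ± 0.70, limma adjusted p = 0.221), and Lrat at 0.928 and 1.30 FPKM, against 2.72 and 2.17 FPKM (change -0.71 ± 0.33, limma adjusted p = 0.193). Pdgfrb, at 0.929 and 0.896 FPKM, and Tgfb1, at 2.38 and 2.64 FPKM, were also below both controls. Lum, at 0.920 and 1.94 FPKM, was below both controls, as was Col14a1 at 2.80 and 5.25 FPKM. Collagen I was low, with Col1a1 at 0.459 and 0.568 FPKM, against 1.04 and 1.47 FPKM in control, and Col1a2 at 1.48 and 2.25 FPKM, against 2.04 and 2.37 FPKM. Acta2 was at 0.753 and 0.717 FPKM, within the control range of 0.660 to 1.00 FPKM. Vim at 14.1 and 6.99 FPKM and Des at 1.68 and 0.888 FPKM lay on both sides of the controls. Eln was above both controls at 1.33 and 1.43 FPKM (change 0.52 ± 0.44, limma adjusted p = 0.476), as were Timp1 at 0.408 and 0.308 FPKM and Lox at 0.241 and 0.0766 FPKM.

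Markers of the cell types that make matrix were read beside these levels. Of 14 endothelial markers Lyve1 and Kdr fell by 1.98 ± 0.35 and 1.75 ± 0.42 on the log2 scale and 0 rose (limma adjusted p = 0.0264 and 0.0426), and the sum was 73.4 and 90.7 FPKM at day 14 and 144 and 131 FPKM in control. Of 21 further stellate markers tested 0 were called by limma and 1 had an unadjusted p under 0.05, with a median change of -0.24, and their sum was 160 and 244.7 FPKM at day 14 and 244.6 and 343 FPKM in control. The most abundant, Steap4, was at 23.6 and 58.1 FPKM at day 14, against 41.7 and 148 FPKM in control (limma adjusted p = 0.444). Of 6 portal fibroblast markers 2 were tested and Dpt fell by 1.45 ± 0.31 (limma adjusted p = 0.0329). Entpd2, the other tested, was not called, at 1.65 and 3.85 FPKM at day 14, against 2.19 and 1.60 FPKM in control. The sum of the list overlapped, at 2.87 and 6.49 FPKM at day 14 and 7.09 and 5.71 FPKM in control. The part of these cells in the members' levels was not tested.

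Day 14 against day 2 gave the most calls in the module. No member was called higher, against 9.09% of all genes, and 12 of 36 were called lower, 33.3%, against 7.03% of all genes. They were 5 of the 8 basement membrane genes (Nid1, Col4a1, Hspg2, Col4a2 and Lamc1), 4 of the 6 tested glycoproteins and proteoglycans (Bgn, Sparc, Fn1 and Dcn) and 3 of the 5 tested remodelling genes (Timp1, Mmp14 and Timp3). The median change was -0.91 log2 units for the tested members, -0.86 over all 38 and -0.03 over all genes. At an unadjusted p under 0.05 the count was 17, all of them lower, again with no share of all genes counted beside it. Of the 6 members that passed the filter through day 2 alone, Timp1 was called. All 12 calls were lost without day 14 replicate 1, when 17 genes in all were called. Without day 14 replicate 2 the count was 8, with Lamc1, Hspg2, Sparc, Timp1 and Timp3 lost and Timp2 gained. Lamc1, Sparc, Dcn and Timp3 were lost without day 2 replicate 1, without either control library and in a fit of day 14 and day 2 alone, which left 8 calls each. Without day 2 replicate 4 Lamc1, Dcn and Timp3 were lost, and with no filter Sparc, Dcn and Timp3 were. Without day 2 replicate 2 the count was 20, when 2472 of 12142 genes tested were called in all, against 1990 in the main fit.

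Nid1 had the largest fall of the members on the log2(FPKM + 1) scale, at 0.526 and 1.26 FPKM at day 14, against 14.2 to 31.8 FPKM at day 2, with a change of -3.52 ± 0.33 log2 units (limma adjusted p = 0.00279). In mean FPKM Timp1 fell further, to 0.0362 of its day 2 level, with Nid1 at 0.0419. Timp1 changed by -2.78 ± 0.57, Col4a1 by -2.27 ± 0.37, Hspg2 by -1.87 ± 0.32 and Col4a2 by -1.77 ± 0.32 (limma adjusted p = 0.0184, 0.00929, 0.0115 and 0.0131). Col4a1 was at 1.78 and 2.20 FPKM at day 14, against 8.64 to 22.6 FPKM at day 2, and Hspg2 at 1.98 and 1.60 FPKM, against 6.29 to 15.8 FPKM. These genes, with Mmp14 at 4.72 and 8.38 FPKM, against 19.9 to 32.2 FPKM (change -1.81 ± 0.29, limma adjusted p = 0.0091), were also below both controls at day 14, apart from Timp1. Lamc1 fell least of the called genes, by 0.78 ± 0.19 (limma adjusted p = 0.0322), and was above control at both times.

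Fn1 was at 114 and 181 FPKM at day 14, against 293 to 511 FPKM at day 2, and fell by 1.41 ± 0.30 (limma adjusted p = 0.0207). Bgn fell by 1.97 ± 0.37, Sparc by 1.89 ± 0.47 and Dcn by 1.07 ± 0.29 (limma adjusted p = 0.0138, 0.0331 and 0.0439). Sparc was at 8.53 and 16.0 FPKM at day 14, against 23.2 to 87.2 FPKM at day 2, and Dcn at 22.9 and 41.5 FPKM, against 54.6 to 82.1 FPKM. Timp3 fell by 1.20 ± 0.31 (limma adjusted p = 0.0359), although it had not been called at day 2. For all 12 called genes both day 14 libraries were below all 4 day 2 libraries. Of all genes tested 20.4% had both day 14 libraries below all day 2 libraries, and of the 36 members tested 21 did, 58.3%. Of these 21, Timp1, Mmp2 and Acta2 passed the filter through day 2 alone and so were bound to look higher at day 2. The groups also did not overlap for Col1a1, Lamb1, Timp2, Mmp2, Acta2, Tagln, Vim, Pdgfrb and Tgfb1, which were tested and not called. Tgfb1 changed by -0.94 ± 0.29 (limma adjusted p = 0.0577) and Tagln by -2.38 ± 0.75 (limma adjusted p = 0.0642). Lox, which was untested, did not overlap either. Col18a1 differed little between the times, at 96.2 and 99.5 FPKM at day 14 and 70.4 to 125 FPKM at day 2 (change 0.15 ± 0.26, limma adjusted p = 0.705). Col14a1, Col15a1 and Eln also showed changes of 0.00 to 0.29 log2 units.

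Cell type markers also changed at day 14 against day 2. Of 14 endothelial markers Lyve1 fell by 1.84 ± 0.31 and Emcn by 0.94 ± 0.26, and the sum was 73.4 and 90.7 FPKM at day 14 and 74.1 to 132 FPKM at day 2. Of the further stellate markers Cygb fell by 1.62 ± 0.26 and Hgf by 1.58 ± 0.35, Pdgfra fell too, and Colec10 rose by 1.11 ± 0.30, with sums of 160 and 244.7 FPKM at day 14 and 145 to 486 FPKM at day 2. Among the contractile markers Tpm1 fell by 1.88 ± 0.31 and Cald1 fell by 1.71 ± 0.28 while Mylk rose by 1.77 ± 0.30, with sums of 99.4 and 113 FPKM at day 14 and 161 to 306 FPKM at day 2. Of 6 Kupffer cell markers Marco fell by 2.96 ± 0.36 and Vsig4 by 1.24 ± 0.23, with sums of 47.1 and 47.9 FPKM at day 14 and 74.4 to 144 FPKM at day 2. The part of these cells in the members' fall was not tested.

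Other matrix genes moved in both directions. Of 46 other matrix protein genes 26 were tested. At day 2 against control Emilin1, an elastic fibre glycoprotein, rose by 2.28 ± 0.41, at 26.6, 19.7, 37.8 and 59.7 FPKM, against 5.35 and 6.76 FPKM in control, Fbln2 was the other gene that rose, and Lama3 and Ogn fell. At day 14 against control Prelp alone was called, falling by 1.82 ± 0.45 on the log2 scale. At day 14 against day 2 the list had 3 genes higher and 3 lower. Col27a1, a fibrillar collagen known from cartilage, was at 120.4 and 30.8 FPKM at day 14, against 5.79, 10.8, 2.12 and 2.13 FPKM at day 2, a change of 3.55 ± 0.67 (limma adjusted p = 0.0143). The third collagen V chain gene, Col5a3, was at 34.7 and 15.3 FPKM at day 14, against 7.01, 3.13, 1.46 and 3.67 FPKM at day 2, a change of 2.45 ± 0.47 (limma adjusted p = 0.015), whereas Col5a1 and Col5a2 changed by -0.60 ± 0.33 and -0.53 ± 0.39. The difference between the chains was not tested. In control Col27a1 was at 12.1 and 8.79 FPKM and Col5a3 at 11.3 and 10.4 FPKM, and neither was called at day 14 against control. For Col5a3 all day 2 libraries were below both controls.

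Collagen processing and cross-linking genes were tested in 15 of 19. Tgm2, tissue transglutaminase, which cross-links fibronectin and other matrix proteins, rose at day 2 by 1.70 ± 0.32, at 91.8, 198, 107 and 99.6 FPKM, against 32.4 and 39.1 FPKM in control (limma adjusted p = 0.0117). P3h1, a collagen prolyl hydroxylase, rose by 1.33 ± 0.28 (limma adjusted p = 0.0158). None of the 15 fell at day 2. At day 14 Loxl4 was lower than in control, and Tgm2 and P4hb, the beta subunit of prolyl hydroxylase, were lower than at day 2 by 2.60 ± 0.32 and 1.44 ± 0.30 log2 units. Of 26 other proteases and inhibitors 12 were tested. Plaur, the urokinase receptor, rose at day 2 by 2.67 ± 0.69 and Adam9 fell by 0.79 ± 0.20 on the log2 scale, Adam9 was also lower at day 14 than in control, and Plat was lower at day 14 than at day 2.

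The TGF-beta pathway genes were largely uncalled at day 2. Of 14 tested, Tgif1, a repressor of Smad signalling, rose by 1.62 ± 0.43 (limma adjusted p = 0.0321) and 0 fell, with a list median of 0.00. At day 14 the co-receptor gene Tgfbr3 was lower than in control by 1.05 ± 0.22 log2 units, and the target Tgfbi, the receptor Tgfbr2 and the signal transducer Smad2 were lower than at day 2 by 1.84 ± 0.32, 1.32 ± 0.33 and 1.06 ± 0.25 log2 units. Immune and bile duct markers were measured in the same libraries. At day 2 Marco rose by 3.96 ± 0.36 while Adgre1 fell by 1.24 ± 0.33 on the log2 scale among 6 Kupffer cell genes, S100a4 and Ly6c2 rose among 6 monocyte genes tested, and 0 of 6 cholangiocyte genes tested were called by limma, with 0 at an unadjusted p under 0.05. At day 14 Adgre1 and Vsig4 were lower than in control among the Kupffer cell genes. Of the adipocyte markers Cidec alone was tested and it was not called at day 2 (limma adjusted p = 0.0586), with Adipoq at 0 in all but 1 library, and the lymphocyte gene Nkg7 was higher at day 14 than at day 2 by 0.94 ± 0.25 log2 units.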

How the data were processed

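The authors deposited gene-level FPKM for 47719 genes in 8 libraries, 1 column each, made from total RNA of liver with an Illumina TruSeq kit, per the labels' protocols. The submitters' processing notes name the builds mm9 and GRCm38 and the tools DESeq2, HTSeq, Cufflinks 2.2.1 and HISAT2 2.10. The sources used here do not give which of these made the table, whether strand was used or how libraries were scaled. Absolute depth is unknown and no counts were recovered, so intervals from counting cannot be given.

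Values were tested as log2(FPKM + 1) with limma 3.58.1 in R 4.3.3. A single model with 3 group means and a mean-variance trend was fitted to the 12340 genes that reached 1 FPKM in 2 or more libraries. P-values were Benjamini-Hochberg adjusted over all of them within a comparison. The residual degrees of freedom were 5 and the prior ones 3.23. The method was tested on simulated data. Library groups came from the age labels, and replicate numbers follow the order of deposit. Median-ratio size factors were 0.970 to 1.03, and each library's median over genes lay within 0.04 log2 units of control.

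The members, lists and naming rule were chosen with earlier results of these data known. All members are named. From each other list the rule took up to 3 called genes with the largest change, or else the most abundant gene. Fbln2 was named to complete a count. Alternatives were leaving out each library, a pseudocount of 0.1, a filter of 5 FPKM or none, quantile or median-ratio scaling, a fit of the compared pair of groups alone, no mean-variance trend, and a length and GC trend removed by splines with 4 degrees of freedom. Transcript positions, lengths and GC content came from the GENCODE annotation of GRCm38, and promoters from RefSeq on GRCm38.p6. Python 3.11.15 with matplotlib 3.10.9 made the figures. Treatments at day 2 were not analysed here. Some further stellate cell markers are not reported here.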

Additional observations from a re-analysis of the deposited data

Results flagged for a closer look

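Within the 4 day 2 libraries, Lamc1 in replicate 3 stood apart at 8.48 FPKM, with the others between 10.4 and 10.8 FPKM, and so did Timp1 in replicate 3 at 2.18 FPKM, with the others between 10.9 and 13.8 FPKM. The title of replicate 3 includes TVR, an abbreviation left unexplained there. Of the 38 members examined for a single distant library at day 2 these 2 were found, close to the 1 in 20 that chance gives. Nothing about replicate 3 or its title is read from them.

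The change against control differed between day 14 and day 2 for 12 members, by the limma test of that difference, which is the comparison of day 14 with day 2. The difference was -3.52 log2 units for Nid1, -2.78 for Timp1, -2.27 for Col4a1, -1.97 for Bgn, -1.89 for Sparc, -1.87 for Hspg2, -1.81 for Mmp14, -1.77 for Col4a2, -1.41 for Fn1, -1.20 for Timp3, -1.07 for Dcn and -0.78 for Lamc1. In these members, apart from Timp3, the change against control was positive at day 2, and at day 14 it was positive for Lamc1 and Timp1 and negative for the other 10.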

How the results depend on the processing

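At day 2 against control 4 members were called with no filter and 4 with the length and GC trend removed, and leaving out each library gave 0 to 13 members and 92 to 2971 genes. The median member change was 1.08 log2 units with the filter of 5 FPKM.

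At day 14 against control 1 member was called with no filter, 4 with quantile scaling, 7 with the compared pair of groups alone and 1 with the trend removed. Leaving out each library gave 0 to 4 members, 0 to 2097 genes and medians of -0.59 to -0.40. Over all genes the calls were 691 with no filter, 2664 with the compared pair of groups alone and 537 with the trend removed. The median was -0.78 with a pseudocount of 0.1 and -0.73 with the filter of 5 FPKM.

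At day 14 against day 2 all genes called were 982 with the compared pair of groups alone, and the member median was -1.54 with the filter of 5 FPKM. Leaving out each library gave 0 to 20 members and 17 to 2472 genes.

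The cause of these differences was not tested. Over the member changes that were called or at least 0.5 log2 units in size, 1006 values under alternatives kept direction and call, 34 gained a call, 80 lost it and none reversed. The main fit held 71 such changes. It called 7 of them at day 2 against control, 2 at day 14 against control and 12 at day 14 against day 2. Only these could lose a call, and the others could stay uncalled or gain one. No filter, the compared pair of groups alone and no mean-variance trend leave the change itself the same, so they could not reverse it. Where leaving out a library leaves 1 in a group, that library is assumed to vary like the others. No paired analysis was possible because any pair of groups shares at most 1 number in its titles, and the labels do not say what these numbers mark. The unknown depth limits what can be said of members under 1 FPKM, such as Lox, Fbln5 and the collagen V chains.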
